A study of Mus musculus with 4 samples.

Results

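Translation initiation factor genes were examined for promoter peaks of biotin-tagged Myc (Bio-Myc) and of Max in mouse embryonic stem cells (ESCs). The members were all protein-coding genes of GENCODE M1 whose symbol starts with Eif and a digit, which gave 58 of the 22380 protein-coding genes. Of these, 45 were classed as core initiation factors and 7 as regulators (the Eif2ak kinases and the Eif4ebp binding proteins). The remaining 6 carry an Eif symbol for another role (the 4 Argonaute genes Eif2c1 to Eif2c4, Eif4enif1 and Eif1ad). The core class follows factor names, so it also holds Eif4a3, Eif4e2, Eif5a and Eif6, whose proteins have other roles, given below. The other 22322 protein-coding genes served as the background.

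The series holds 4 ChIP-Seq samples of E14 mouse ESCs, and the peak lists of 2 of them were analysed. Bio-Myc chromatin was purified on Streptavidin T1 Dynabeads from a single stable clone that expressed N-terminally Biotin-tagged Myc from an EF1α promoter, with a mock ChIP as reference. By the methods, the tagged clones were made from BirA-ES cells. Max chromatin came from parental wild type cells with an anti-Max antibody, with an anti-IgG ChIP as reference. The methods name BirA-ES cells without a tagged protein as the source of the mock ChIP, while its label gives parental wild type. The 2 ChIPs therefore differ in cells as well as in the protein captured, and with 1 library each, no value has an error between cultures. Peaks have a score, which is 10 times the negative log10 of the p-value that the peak caller MACS gave them, and the lowest score is 80 in the Bio-Myc list and 80.02 in the Max list. Scores were ranked within a list only. Depth is unknown, so the absence of a peak says that none passed the limit of 1e-08, not that the protein was absent. A peak list holds no expression value, so the ESC identity could not be checked with marker genes.

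Initiation factors bring the initiator tRNA, the small ribosomal subunit and the capped mRNA together and find the start codon. eIF2 carries the initiator tRNA, eIF2B recharges eIF2 with GTP, eIF3 is the large scaffold on the small subunit, and eIF4E, eIF4G and eIF4A recognise and unwind the cap end of the mRNA. Myc is known for driving genes of ribosome production and protein synthesis, and binds with Max to the E-Box, CACGTG.

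The E-Boxes below are a selection of those under the peaks of both lists, or, for Eif5a2, under the Max peak alone. Each run of 30 bases is mm9 sequence on the strand of the gene, 5′ to 3′, with the E-Box in capitals. Numbers after the gene give its E-Boxes in the order of the gene's strand. For Eif4ebp1, the first of its 2 E-Boxes is shown.
Eif3a, chr19:60866557-60866586, minus strand: ccgcgagggaatCACGTGgttccttccttt
Eif3b, chr5:140894485-140894514, plus strand: cccacgctggccCACGTGatcgcgctctcc
Eif3e, chr15:43114050-43114079, minus strand: gcagggcctacaCACGTGcgagccggaagc
Eif4a1, chr11:69486097-69486126, minus strand: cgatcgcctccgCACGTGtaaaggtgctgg
Eif4b 1, chr15:101904320-101904349, plus strand: gcccgctataatCACGTGactgcctcatcc
Eif4g1 1, chr16:20672734-20672763, plus strand: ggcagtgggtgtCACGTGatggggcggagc
Eif4g1 2, chr16:20672803-20672832, plus strand: ctctgcgccggtCACGTGgggcgctggctg
Eif4h, chr5:135115358-135115387, minus strand: cggccgccgcacCACGTGggccgcagagcg
Eif5a 1, chr11:69735379-69735408, minus strand: cagtctcttgagCACGTGcagagctgggac
Eif5a 2, chr11:69734945-69734974, minus strand: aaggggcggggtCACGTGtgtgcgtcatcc
Eif5a 3, chr11:69734293-69734322, minus strand: gcgctgcgcggcCACGTGaggtgggggagg
Eif5a2 1, chr3:28680045-28680074, plus strand: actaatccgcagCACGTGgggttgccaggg
Eif5a2 2, chr3:28680070-28680099, plus strand: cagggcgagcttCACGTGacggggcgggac
Eif4ebp1, chr8:28371076-28371105, plus strand: gatccggagtctCACGTGcgacggggaggg

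Promoter peaks were those that reached to within 1 kb of an annotated transcription start site (TSS) of the gene. Of the 45 core genes, 26 had a Bio-Myc peak (57.8%), against 14.5% of the other protein-coding genes. A Max peak was present at 34 core genes (75.6%), against 34.7% of the others. Both peaks were present at 25 core genes (55.6%), against 12.6% of the others. The share of core genes was thus 3.98 times the background for Bio-Myc, 2.18 times for Max and 4.43 times for both. The core genes with a Max peak alone were 9, a Bio-Myc peak alone was found at Eif3c, and 10 had neither. No set test was made, so the ratios are descriptions.

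CpG-rich promoters made up 84.2% of the other promoters with Bio-Myc. Of the core genes, 42 of 45 (93.3%) had a CpG observed/expected ratio of 0.6 or more within 500 bp of the outermost TSS, against 45.5% of the others. Among the 10159 other genes with such a promoter, Bio-Myc was found at 26.9%, Max at 59.7% and both at 23.6%. Among the 42 core genes with such a promoter, the shares were 59.5%, 78.6% and 57.1%. Against the CpG-rich other genes, the share of all 45 core genes was 2.15 times for Bio-Myc, 1.27 times for Max and 2.35 times for both. The ratios were therefore lower in this narrower background than against all other genes, and the Max ratio was the lowest of them in both. The part of CpG content in the binding of the core genes was not tested.

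**Figure D1:**
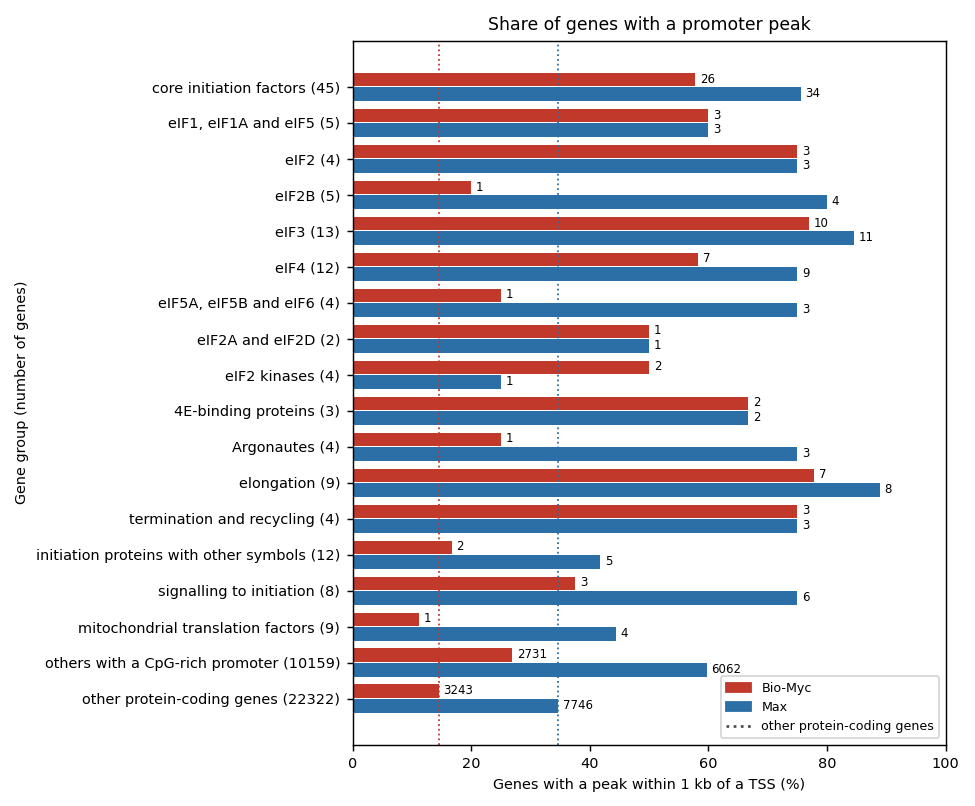
Share of genes with a promoter peak (horizontal axis, %) in each gene group (vertical axis, with the number of genes), for Bio-Myc in red and Max in blue. Numbers at the bars are genes with a peak and the dotted lines mark the other protein-coding genes. Core initiation factors reached 57.8% for Bio-Myc and 75.6% for Max, and eIF2B differed between the lists with 1 and 4 of its 5 genes.

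Where Max was present at a core promoter, Bio-Myc usually was too. Of the 34 core genes with a Max peak, 25 also had a Bio-Myc peak (73.5%). The same share was 36.2% of the other Max-bound genes and 39.5% of those with a CpG-rich promoter. The Max list is the longer one. Cut to the number of Bio-Myc peaks, it left 15 of 19 Max-bound core genes with both, against 1846 of 3443 others. In the other direction, 25 of the 26 Bio-Myc-bound core genes had a Max peak (96.2%, against 86.4% of the others). In all 25, the strongest Bio-Myc peak overlapped a Max peak directly. The same was true of 2746 other bound genes (84.7%), beside 2802 with both peaks, so such overlap was general. The median score of the strongest Bio-Myc peak was 190 over the 26 core genes (81.18 to 777) and 143 over the 3243 other bound genes. For Max, the medians were 234 over 34 core genes (87.45 to 1517) and 196 over the others. A Bio-Myc score of 300 or more was found at 9 of the 26 bound core genes (34.6%) and at 14.4% of the other bound genes.

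**Figure D2:**
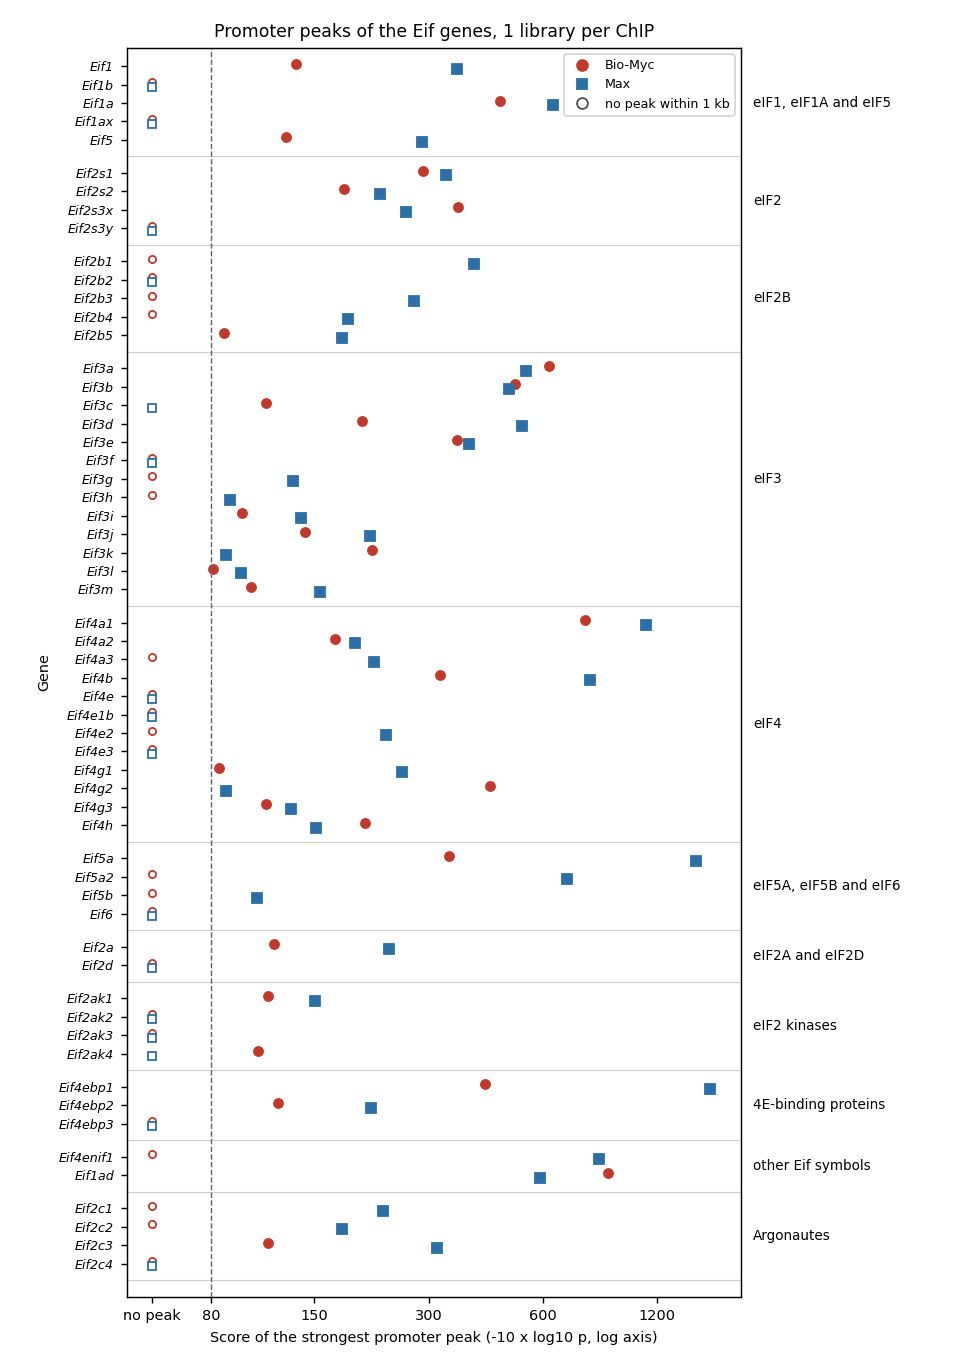
Score of the strongest promoter peak (horizontal axis, 10 times the negative log10 of the p-value, log axis) for each of the 58 Eif genes (vertical axis, grouped by complex), with Bio-Myc as red circles and Max as blue squares. Open symbols on the left mark genes without a promoter peak and the dashed line is the limit of 80. Eif4a1 was the highest core gene for Bio-Myc and Eif5a for Max.

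The cap-binding group held the strongest Bio-Myc peak of the core factors. Eif4a1 (ENSMUSG00000059796.9, chromosome 11 of mm9, 69480438 to 69485925, minus strand) encodes the RNA helicase of the complex. Its Bio-Myc peak, from 69484157 to 69486404, had a score of 777 and was number 43 of the 3962 Bio-Myc peaks. Its Max peak, from 69484275 to 69486521, had a score of 1123 and was number 114 of the 11570 Max peaks. Both covered annotated TSSs and shared 1 E-Box, 187 bp upstream of the outermost TSS. The paralog Eif4a2 (chromosome 16, 23107517 to 23114209) had lower scores, 169.5 for Bio-Myc and 191 for Max, without an E-Box. Eif4a3, whose protein is part of the exon junction complex, had a Max peak alone with a score of 216, and its nearest Bio-Myc peak was 35.4 kb away. By score, Eif4a1 thus stood above both of its paralogs in both lists.

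The helicase cofactors Eif4b and Eif4h carried both proteins. Eif4b (chromosome 15, 101904204 to 101927603) had a Bio-Myc score of 322 and a Max score of 798, with E-Boxes 20 bp upstream and 763 bp downstream of a TSS. Eif4h (chromosome 5, 135095747 to 135115218) had scores of 205 and 152. Its E-Box lay 155 bp upstream of the TSS and 6 bp off the middle of the Bio-Myc peak, the smallest such distance among the core genes.

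The scaffold genes differed in their balance between the lists. Eif4g1, the main eIF4G scaffold, had a Bio-Myc score of 84.07, near the limit, and a Max score of 255. Both of its peaks lay over internal TSSs, 4410 bp downstream of the outermost TSS (20668386 on chromosome 16), with E-Boxes 48 bp and 2 bp upstream of the nearest annotated TSS. Eif4g2 encodes a related protein that lacks the eIF4E-binding part, and it had the reverse balance. Its Bio-Myc peak (chromosome 7, 118225423 to 118227262) had a score of 436, above 93.6% of the other bound genes. Its Max peak (118226562 to 118227178) had a score of 87.45, above 4.88% of them, and its nearer edge lay 18 bp upstream of a TSS. Eif4g3 had 112 for Bio-Myc and 129.7 for Max. Thus all 3 scaffold genes had both peaks, with Eif4g2 ahead of Eif4g1 in the Bio-Myc list and behind it in the Max list.

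The cap-binding protein itself had no promoter peak. For Eif4e (chromosome 3, 138189155 to 138220563), the nearest Max peak (score 142) began 1544 bp downstream of the TSS, outside the 1-kb window, and Bio-Myc was not found closer than 82.4 kb upstream. Its window within 1 kb of the TSS held 1 E-Box. Eif4e2, a cap-binding relative known as a translational repressor, had a Max peak alone (score 232), and its nearest Bio-Myc peak was 461 kb away. Eif4e1b and Eif4e3 had neither, with the nearest Max peaks 89.0 kb and 59.4 kb away and the nearest Bio-Myc peaks 95.5 kb and 621 kb away. Over the eIF4 group, 7 of 12 genes had a Bio-Myc peak (58.3%), against 14.5% of the other genes and 26.9% of the CpG-rich ones. None of the 4 cap-binding genes did, a number too small to set them apart from these background shares.

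eIF3 was the most completely bound of the larger groups. Bio-Myc peaks were present at 10 of its 13 genes (76.9%), against 14.5% of the other protein-coding genes and 26.9% of those with a CpG-rich promoter. Max peaks were present at 11 (84.6%), against 34.7% and 59.7%. Eif3a and Eif3b, 2 of the subunits at the centre of the complex, had the highest scores. Eif3a (chromosome 19, 60837019 to 60866596) had 625 for Bio-Myc, number 80 of the list, and 543 for Max, with an E-Box 24 bp downstream of its TSS. Eif3b (chromosome 5, 140895259 to 140919314) had 508 and 489, with an E-Box 760 bp upstream. Eif3e (chromosome 15, 43081586 to 43114282) followed with 356 and 383, and an E-Box 217 bp downstream. These 3 genes lie on different chromosomes and each held a single E-Box common to both peaks.

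The remaining eIF3 genes had lower Bio-Myc scores. Eif3k had 213 for Bio-Myc and 87.9 for Max, with an E-Box 66 bp upstream of its TSS. Eif3d had 200.1 and 528.5, and the E-Box in its Max peak, 583 bp downstream, lay outside the Bio-Myc peak. Eif3j had 142 and 210.2, with an E-Box 547 bp downstream. Eif3m had 102 and 155, Eif3i 96.9 and 138, and Eif3l 81.18 and 96.1, and none of these peaks held an E-Box. Eif3c, the third subunit at the centre of eIF3, was the one core gene with a Bio-Myc peak alone (score 112, chromosome 7, 133709138 to 133710038), and its nearest Max peak was 69.9 kb away. Eif3g and Eif3h had Max alone, with scores of 132 and 89.8, and their nearest Bio-Myc peaks were 9.59 kb and 11.5 kb away. Eif3f had neither, with a Max peak 10.3 kb and a Bio-Myc peak 579 kb downstream. The scores within this one complex thus ran from close to the limit of the list to its highest ranks.

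The genes of eIF2 and of its exchange factor eIF2B differed in Bio-Myc, with 75% against 20% of genes, beside 14.5% of the other protein-coding genes. All 3 autosomal or X-linked eIF2 genes had both peaks. Eif2s1, the alpha subunit on which the stress kinases act, had 289.7 for Bio-Myc and 333 for Max (chromosome 12, 79962806 to 79987997). Eif2s2, the beta subunit, had 179 and 224. Eif2s3x, the X-linked gamma subunit, had 359 and 262. None of these peaks held an E-Box. Eif2s3y, the Y-linked copy, had no promoter peak. Its nearest Max peak was 1429 kb away, and the Bio-Myc list held no peak on its chromosome.

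Of the 5 eIF2B genes, 4 had a Max peak and 1 a Bio-Myc peak. The Bio-Myc share of 20% lay between the 14.5% of the other protein-coding genes and the 26.9% of those with a CpG-rich promoter. The Max share was 80%, against 34.7% and 59.7%. Eif2b5, the catalytic epsilon subunit, had both, with a Bio-Myc score of 86.5 close to the limit, a Max score of 177 and an E-Box 339 bp upstream. Max alone was present at Eif2b1 (394), Eif2b3 (275) and Eif2b4 (184), whose nearest Bio-Myc peaks were 21.7, 38.8 and 8.28 kb away. Eif2b2 had neither, with the nearest Bio-Myc peak 45.8 kb and the nearest Max peak 45.7 kb away. The difference between 1 of 5 and 3 of 4 genes for Bio-Myc was not tested, since the groups are small and members of 1 list are not replicates.

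Among the factors of start codon choice, each paralog pair was split. Eif1, which keeps the scanning ribosome from stopping early, had 134 for Bio-Myc and 356 for Max, with an E-Box 41 bp downstream of a TSS, while Eif1b had its nearest Bio-Myc peak 78.2 kb and its nearest Max peak 78.3 kb away. Eif1a had 464 and 639.5 and 2 E-Boxes, while Eif1ax had its nearest Bio-Myc peak 116 kb and its nearest Max peak 254 kb away. Eif1ax lies on chromosome X. Leaving out chromosomes X and Y took the other genes from 22322 to 21376, but those with Bio-Myc only from 3243 to 3192. Those with Max went from 7746 to 7706, so genes there rarely had a peak. The part of the chromosome in this split was not tested. Eif5, the GTPase activator of eIF2, had a Bio-Myc peak of 126 and a pair of Max peaks, the stronger with 289, and none held an E-Box.

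Of the 6 late and alternative factors, 4 had a Max peak, a share near the 59.7% of other genes with a CpG-rich promoter, and 2 had a Bio-Myc peak. Eif5a, whose hypusine-modified protein helps the ribosome through difficult peptide bonds, had a Max score of 1517, number 52 of the list and the highest of the core genes, and a Bio-Myc score of 339. Its Bio-Myc peak (chromosome 11, 69733081 to 69736360) was 3280 bp wide, the widest at a core promoter, and held 3 E-Boxes 66 bp downstream, 72 bp upstream and 113 bp downstream of their nearest TSSs. Eif5a2, its paralog, had a Max score of 696 and its nearest Bio-Myc peak was 23.8 kb away. Its 2 E-Boxes lay 22 and 47 bp off the middle of the Max peak. Eif5b, the factor of subunit joining, had Max alone (106), with the nearest Bio-Myc peak 125 kb away. Eif6, which keeps the large subunit from joining too soon, had neither, with Max 92.9 kb and Bio-Myc 238 kb away. Eif2a had both (118 and 236.5), and Eif2d, another carrier of tRNA to the ribosome, had neither, with a Max peak 4.72 kb and a Bio-Myc peak 13.1 kb upstream. Eif5a and Eif5a2 thus differed in Bio-Myc while both held E-Boxes under a Max peak of high score.

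**Figure D3:**
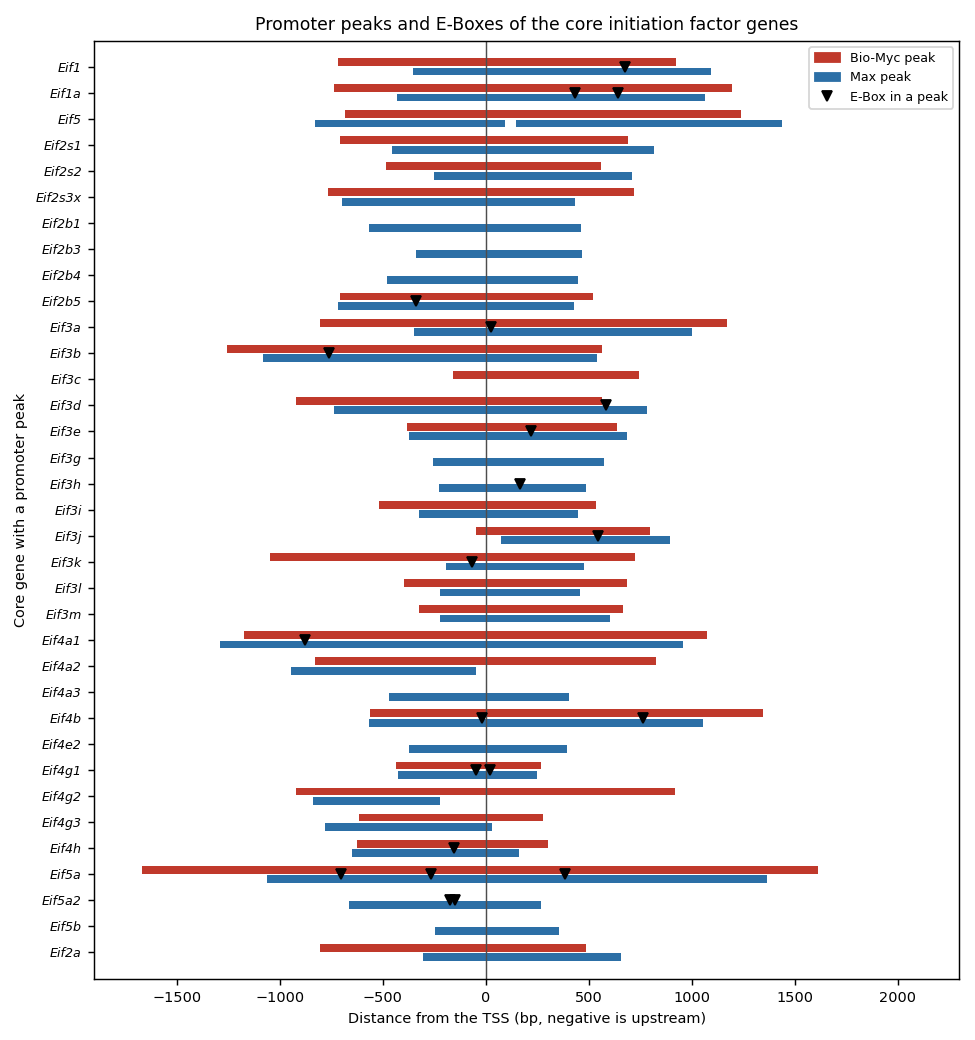
Promoter peaks of the 35 core genes with a peak in either list, drawn by distance (horizontal axis, bp) from 1 annotated TSS per gene, the one nearest to the centre of the strongest Bio-Myc peak, or of the Max peak where there was none. Red bars are Bio-Myc peaks, blue bars Max peaks and triangles E-Boxes under a peak, whose place here can differ from the text, where distances are from the TSS nearest to each E-Box. The bars of both lists lay over the same stretch at nearly all genes with both, and Eif4g2 shows a narrow Max peak at one end of its Bio-Myc peak.

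Peaks of the core genes lay over the TSS. Each of the 26 Bio-Myc peaks covered an annotated TSS, and their centres lay between -346 and 391 bp from the nearest one, with negative values upstream. The median absolute distance was 151 bp, against 148 bp for the 2875 peaks at other coding promoters, of which 2489 covered a TSS. The core peaks were wider, with a median of 1444 bp against 1053 bp. For Max, 33 of 35 core peaks covered a TSS, against 6102 of 7536 at other coding promoters, and the median width was 930 bp against 860 bp. Covering a TSS was thus common to the promoter peaks of both lists.

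An E-Box was found under the Bio-Myc peak of 13 of the 26 bound core genes, which is 28.9% of all 45 core genes against a background of 7.22%. Taken over bound genes alone, the shares were 50% for core genes and 49.7% for the others, with wider peaks at the core genes. In the central 200 bp of the peak, 4 core genes (Eif3e, Eif3k, Eif4g1 and Eif4h) held one, 15.4% against 17.9% of the other bound genes. Under the Max peaks, 16 of 34 core genes (47.1%) and 38.6% of the others held an E-Box. The median Bio-Myc score was 322 for the 13 core genes with an E-Box and 126 for the 13 without. Among the other bound genes the medians were 164 and 126, so genes with an E-Box had the higher median in both. The whole peak was searched here, and a wider peak holds more sequence (2248 bp at Eif4a1, 901 bp at Eif3c). The 4 core genes with an E-Box in the central 200 bp had Bio-Myc scores of 356, 213, 84.07 and 205, in the order named. The part of peak width in the contrast was not tested.

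E-Boxes in the promoter sequence occurred in core genes with and without a Bio-Myc peak. In the window within 1 kb of the outermost TSS, searched on both strands, CACGTG occurred in 24 of the 45 core genes (53.3%), in 27.8% of the other genes and in 33.7% of those with a CpG-rich promoter. It occurred in 14 of the 26 core genes with a Bio-Myc peak (53.8%) and in 10 of the 19 without (52.6%). These 10 were Eif1b, Eif2s3y, Eif2b1, Eif2b4, Eif3f, Eif3g, Eif3h, Eif4e, Eif5a2 and Eif5b. Median CpG observed/expected was 0.856 for the core genes with a Bio-Myc peak, 0.811 for those with Max alone and 0.672 for those with neither.

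CACGCG, a variant that Myc and Max are also known to bind, was searched on both strands in the same way, and no match of one can overlap a match of the other. It occurred within 1 kb of the outermost TSS of 25 core genes (55.6%) and 33.2% of the others. Under the Bio-Myc peak it occurred in 18 of the 26 bound core genes (69.2%) and 56.9% of the other bound genes. CACGCG contains CpG, and promoters were CpG-rich at 93.3% of core genes against 45.5% of the others. Among bound genes these shares were 96.2% and 84.2%, and the core peaks were wider (median 1444 against 1053 bp). The share with CACGCG among other genes with a CpG-rich promoter was not counted. Of the 13 bound core genes without CACGTG, 6 held it (Eif5, Eif2s3x, Eif3l, Eif3m, Eif4g2 and Eif2a). The other 7 held neither sequence (Eif2s1, Eif2s2, Eif3c, Eif3d, Eif3i, Eif4a2 and Eif4g3), which is 26.9% of the bound core genes against 21.6% of the other bound genes.

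The bases next to the E-Box differed among the sequences shown above. Counting on each strand the base before CACGTG, a T stood on neither side of 10 of the 22 E-Boxes under core peaks (45.5%), on 1 side of 9 and on both sides of 3, which are in Eif4b, Eif4g1 and Eif5a2. Under the promoter peaks of the other genes, 63.0% of 3860 E-Boxes had no such T, 30.1% had it on 1 side and 6.97% on both. The E-Boxes of core genes lay a median of 134 bp from the nearest TSS under Bio-Myc peaks, against 257 bp for the others. From the centre of the peak the order was reversed, with 242 bp against 183 bp, the core peaks being wider. Within 100 bp of the centre lay 22.2% of the core E-Boxes and 29.6% of the others. Under Max peaks the medians from the centre were 220 bp and 137 bp.

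Some of these peaks cannot be assigned to 1 gene. The TSS of another protein-coding gene lay within 1 kb of a TSS of 9 core genes (20%, against 13.7% of the others). Of these, Eif1a (with Tmed7), Eif2s1 (Atp6v1d), Eif3i (2510006D16Rik), Eif3k (Map4k1), Eif3m (Ccdc73) and Eif2a (Serp1) had both peaks, and Eif2b1 (Gtf2h3), Eif2b4 (Snx17) and Eif5b (Txndc9) had Max alone. Without such genes on either side, Bio-Myc was found at 20 of 36 core genes (55.6%) and at 11.9% of the others.

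**Figure D4:**
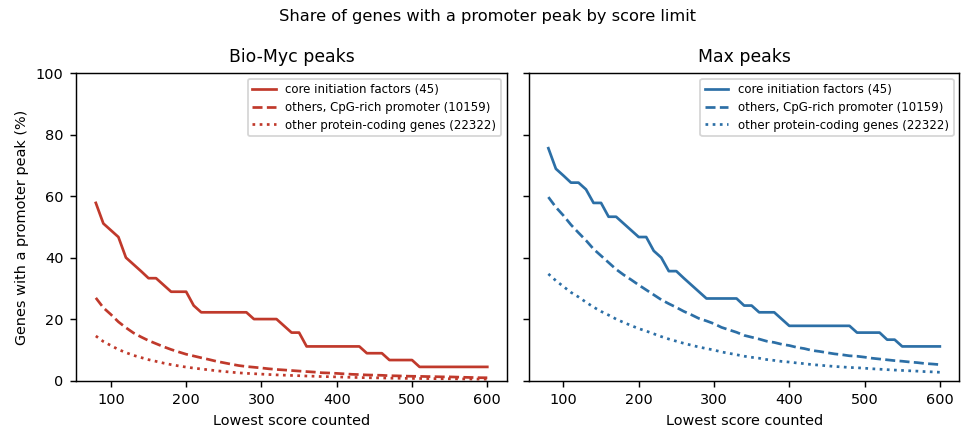
Share of genes with a promoter peak (vertical axis, %) when only peaks at or above a score (horizontal axis) are counted, for Bio-Myc on the left and Max on the right. Solid lines are the 45 core genes, dashed lines other genes with a CpG-rich promoter and dotted lines all other protein-coding genes. The core line lay above both others at every limit drawn.

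The order of the groups held when weak peaks were left out. At a score of 150 or more, 15 core genes had a Bio-Myc peak (33.3%), against 6.79% of the other genes and 13% of those with a CpG-rich promoter. At 300 or more, the numbers were 9 core genes (20%), 2.09% and 4.09%. For Max, the shares at 300 or more were 26.7%, 9.93% and 18.5%.

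Of the 7 regulators, 4 had a Bio-Myc peak (57.1%), against 14.5% of the other protein-coding genes and 26.9% of those with a CpG-rich promoter. Max peaks were present at 3 (42.9%), a share near the 34.7% of the other genes and below the 59.7% of the CpG-rich ones. The 4E-binding proteins hold eIF4E away from the scaffold until mTOR phosphorylates them. Eif4ebp1 (chromosome 8, 28370799 to 28386128) had a Bio-Myc peak of 422 and a Max peak of 1652, number 41 of its list and higher than at any core gene, and both covered the TSS and 2 E-Boxes at 291 and 1290 bp downstream. The Max list is dense on this chromosome, with 6.34 Max peaks for each Bio-Myc peak against 2.44 to 3.37 on the other autosomes, and the part of this in the Max score was not tested. Eif4ebp2 had 119.9 and 211, without an E-Box, and Eif4ebp3 had neither, with Max 14.9 kb and Bio-Myc 95.8 kb downstream. Thus the binding protein gene carried both proteins where Eif4e, the gene of its target, had no promoter peak in either list.

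Among the kinases that phosphorylate eIF2, Eif2ak1, which senses haem, had 113 for Bio-Myc and 150.1 for Max. Eif2ak4, which senses lack of amino acids, had Bio-Myc alone (107), and its nearest Max peak, with a score of 819, was 14.1 kb upstream. Eif2ak2, which senses double-stranded RNA, and Eif2ak3, which senses stress of the endoplasmic reticulum, had neither, with the nearest Max peaks 12.4 kb and 52.0 kb and the nearest Bio-Myc peaks 33.2 kb and 52.1 kb upstream. None of the peaks at kinase genes held an E-Box.

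Genes with an Eif symbol for another role included some of the highest ranks. Eif1ad, which shares its promoter with Banf1, had a Bio-Myc score of 891, number 27 of the list and above every core gene, and a Max score of 589.7, with an E-Box 533 bp upstream. Eif4enif1, whose protein carries eIF4E into the nucleus, had a Max peak of 843 with an E-Box and its nearest Bio-Myc peak was 52.8 kb away. Of the Argonaute genes, which act in silencing by small RNAs, Eif2c3 had both (113 and 316), Eif2c1 and Eif2c2 had Max alone (228 and 178), and Eif2c4 had neither. Eif2c1, Eif2c3 and Eif2c4 lie together on chromosome 4, and the Bio-Myc peak at Eif2c3 was the nearest one to each, 13 kb from Eif2c1 and 86.6 kb from Eif2c4. The nearest Max peak to Eif2c4 was 47.8 kb away, and the nearest Bio-Myc peak to Eif2c2 93.9 kb.

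Other genes of translation were counted in lists set by function, with genes of an Eef symbol as the elongation list. Bio-Myc peaks were present at 7 of 9 elongation genes, 3 of 4 of termination and recycling, 2 of 12 initiation proteins with other symbols, 3 of 8 in signalling to initiation and 1 of 9 mitochondrial translation factors, against the background of 14.5%. For Max the counts were 8, 3, 5, 6 and 4, against 34.7%. Eef2, the translocase of elongation, had 235 for Bio-Myc and 1241 for Max, with 2 E-Boxes under the Bio-Myc peak. Eef1a1, which delivers aminoacyl-tRNA, had 378 and 411 without an E-Box, and Abce1, which recycles ribosomes, had 634 and 903 and lies on chromosome 8, where the Max list is dense. Of the partners of initiation, Denr (160.4 and 229.5) and Pabpc1 (434 and 309) had both peaks, and Atf4, translated under eIF2 phosphorylation, had 435.5 and 164. The Bio-Myc share was 77.8% for elongation and 75% for termination, beside 57.8% for the core initiation factors, and 11.1% for the mitochondrial factors. Regulators and other roles were set apart from the core but not from the elongation list. That list includes Eef2k and Eef1e1, with Bio-Myc scores of 220 and 482, so its share is not directly comparable with that of the core.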

How the data were processed

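The authors sequenced 1 library per ChIP on an Illumina HiScanSQ, aligned them to mm9 by Bowtie 0.12.7, keeping uniquely placed reads with at most 2 mismatches, merged duplicates, and ran MACS 1.4.1 for peaks against the mock or IgG ChIP at a p-value of 1e-08. CASAVA 1.8 stands in the submitters' processing notes. The deposited lists give position and a score per peak (3962 Bio-Myc and 11570 Max peaks), with no read counts, and unique mapping leaves repeated sequence out. The mock and IgG ChIPs entered only through the peak calling.

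Starts were converted to 1-based positions. Genes, TSSs and sequence were GENCODE M1 and NCBIM37, the assembly of mm9. A promoter peak overlapped by at least 1 bp the region within 1 kb of any TSS of a gene, and the strongest one gave its score. Members and lists were chosen with earlier results of these data known. Every member was named, with values for the 10 core genes of highest Bio-Myc score, for genes bound in 1 list alone, for paralogs, and the nearest peak where there was none. No tests were run, since there are no replicates. Python 3.11.15, pysam 0.24.0, matplotlib 3.10.9 and samtools 1.23.1 were used. Promoter, motif and position steps were tested on simulated data. Alternatives covered score limits, windows, TSS choice, list length, chromosomes, shared promoters, gene backgrounds and motif search.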

Additional observations from a re-analysis of the deposited data

How the results depend on the processing

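With peaks at a score of 150 or more, the core genes with Bio-Myc fell from 26 to 15 and those with both from 25 to 13, while the other protein-coding genes fell to 1515 with Bio-Myc, 5032 with Max and 1294 with both. With the Max list cut to the number of Bio-Myc peaks, 19 core genes had Max and 15 both, against 3443 and 1846 of the others. With the search limited to the central 200 bp, 4 core genes had an E-Box under the Bio-Myc peak. The first 2 settings hold fewer peaks and the last a shorter sequence. Under the other alternatives run, each count stayed within 1.5 times its value. Across all settings the core share was 2.15 to 4.91 times that of the background for Bio-Myc and 1.27 to 2.74 times for Max, lowest against genes with a CpG-rich promoter. The unknown depth and the single library per ChIP limit every absence of a peak. No paired analysis was possible because each ChIP has 1 sample.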
